A study of Bos taurus with 8 samples.

Results

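The genes described here are 32 genes of the unfolded protein response and of the amino acid response that joins it, listed by name. The array annotation held 29 of them among 15229 distinct gene symbols, 27 under the current symbol and 2 under an older name that RefSeq's gene table lists (HYOU1 as ORP150 and XBP1 as XBPP1). ATF6, CANX and VLDLR were not analysed here. RNA came from granulosa cells, the somatic cells of the ovarian follicle, of Holstein cows at day 60 after calving. Group BHBH comprised cows in severe negative energy balance, classed by high beta-hydroxybutyrate in blood, and group BHBL cows in mild negative energy balance, classed by low values, so both groups were short of energy and they differed in degree. All cells were aspirated from dominant follicles of more than 9 mm, 42 h after a PG injection given to both groups. Each group was made up of 12 cows in 4 pools of 3, so no value belongs to a single cow, and each of 4 pairs of a BHBH with a BHBL pool was hybridised on 2 arrays with exchanged dyes. All ratios below are log2 of BHBH over BHBL, averaged over both arrays of a pair, and n = 4 pool pairs.

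The endoplasmic reticulum folds proteins bound for the membrane and for secretion. When unfolded protein builds up there, the membrane sensors IRE1 (gene ERN1), PERK (gene EIF2AK3) and ATF6 signal to the nucleus. IRE1 splices the mRNA of the transcription factor XBP1, ATF6 is cut to release a transcription factor, and both raise chaperones and the machinery that removes misfolded proteins. PERK slows translation by phosphorylating eIF2alpha, which favours translation of ATF4. ATF4 is also raised by amino acid shortage through the kinase GCN2, and its targets include amino acid synthesis enzymes and transporters as well as DDIT3 (CHOP). Arrays of total mRNA do not measure XBP1 splicing, ATF6 cleavage or eIF2alpha phosphorylation. Granulosa cells of dominant follicles secrete inhibins and matrix proteins, which pass through this compartment.

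Of 18 granulosa cell markers 17, among them FSHR, FOXL2 and CYP19A1, were above background in both groups on all 8 arrays. Markers of other cells were measured too. Of 20 leukocyte markers 19 were above background in both groups on all arrays, and of 14 epithelial markers 9 were. The arrays differed little in the share of probes above background, which was 81.2% to 86.1%. All 29 genes passed the filter on dim probes, and 25 were above background in both groups on all 8 arrays. The exceptions were ATF5 (4 of 8 in BHBH and 3 of 8 in BHBL), PPP1R15A and TRIB3 (6 of 8 in BHBH, 8 of 8 in BHBL) and HYOU1 (8 of 8 and 7 of 8).

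None of the 29 genes differed between BHBH and BHBL by limma after Benjamini-Hochberg adjustment over 32445 features, where 0% of all features passed and the smallest adjusted p of a member was 0.919. At unadjusted p under 0.05 there were 3 members (DNAJB9, XBP1 and PPP1R15A), or 10.3%, against 5.1% of all features, and all 3 had a ratio below 0. Fits that took the 8 arrays one by one called other features but none of the 29 members. The mean ratio was below 0 for 22 of 29 members, or 75.9%, for 51.8% of all features and for 54.8% of all named genes. The median of the members was -0.04, beside -0.01 over all features and -0.02 over all named genes. With the deposited log2 ratios the lean was smaller. There 15 of 29 members were below 0, or 51.7%, beside 43.9% of all features and 46.5% of all named genes, and the members' median was 0.00. The deposited ratios had the sign of the ratios used here for 22 of the 29 members. The 95% interval of the ratio lay within 2-fold in both directions for 26 members. It reached beyond 2-fold for HSPA5, SDF2L1 and PSAT1. These intervals use limma's moderated SE, in which the variance of a gene is drawn towards that of all features. They are not adjusted for the number of genes. Intervals from the 4 ratios alone would be wider for genes of large spread, such as HERPUD1 (SD 0.73), so the count of 26 depends on this SE. The 26 include PDIA6 by a probe saturated on 8 of 8 arrays, and its other probes had SDs of 0.82 and 0.71 over pairs. They also include ATF5, which had few arrays above background, so the intervals of both genes are limited by their signal. All ratios here are RNA ratios of mixed cell samples, in which fewer cells of a type and less RNA per cell cannot be told apart.

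**Figure D1:**
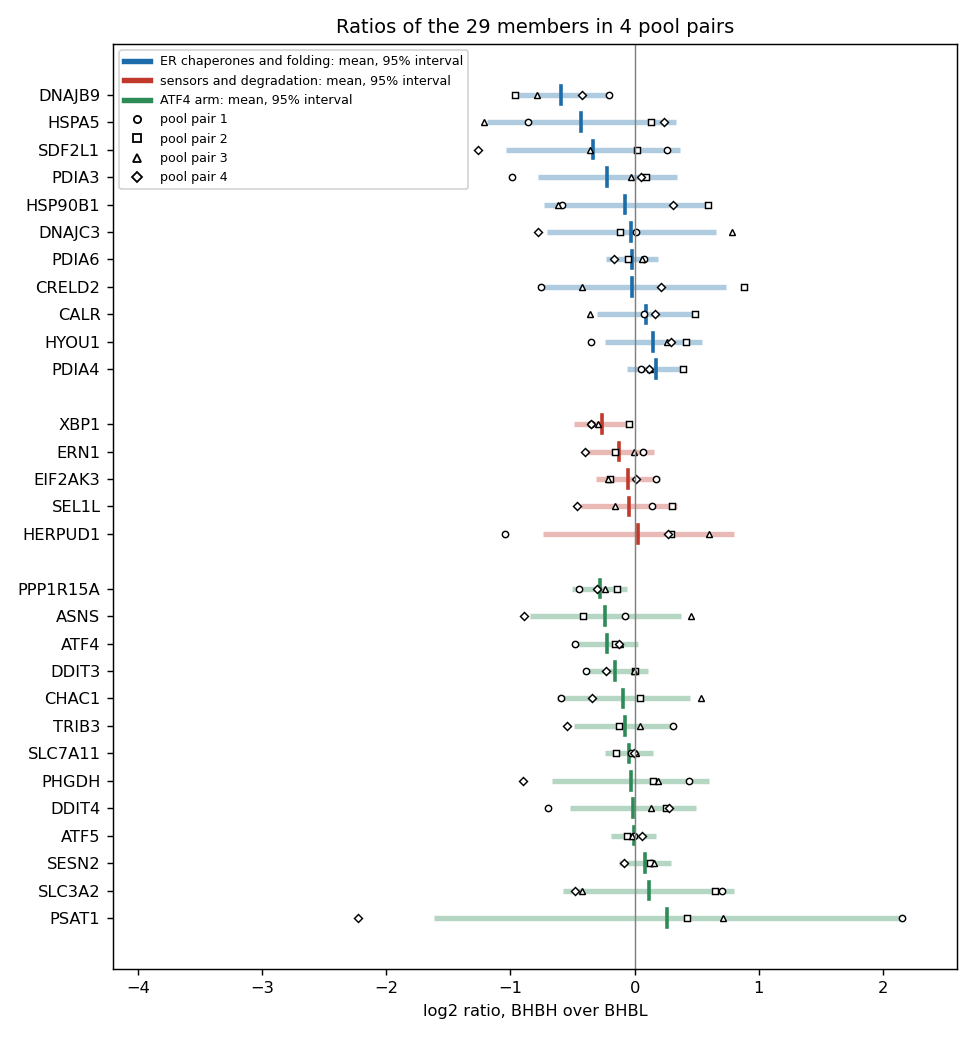
Log2 ratio of BHBH over BHBL (horizontal axis) for each of 29 genes, grouped as chaperones, sensors with degradation genes, and the ATF4 arm. Vertical ticks are means, bars 95% intervals by limma's moderated SE and symbols the 4 pool pairs. DNAJB9 has all 4 symbols below 0, while PSAT1 spans -2.23 to 2.15.

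The spread between pool pairs can be set beside the spread of repeat arrays, which it contains. The SD over pool pairs was above the technical SD of a pair's mean, taken from its 2 dye-swapped arrays after the mean difference between slides was removed, for 27 of 29 members. Its median was 0.35 against a technical 0.08. Over all named genes the medians were 0.31 and 0.10, and 85.8% had the larger SD between pairs.

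The chaperones and folding factors had no common direction in BHBH. Of 11 measured genes 3 were higher on average and 8 lower, with a median of -0.03, and 0 passed the test. HSPA5 encodes BiP, the main Hsp70 of the endoplasmic reticulum, which also holds the sensors inactive. Its normalised log2 intensity, called level below, was 12.93, 13.65, 13.19 and 13.26 in BHBH pools 1 to 4, and 13.79, 13.52, 14.41 and 13.02 in BHBL pools 1 to 4. The groups overlapped, and BHBL pools 1 and 3 were higher than every BHBH pool. The ratios were -0.86, 0.13, -1.21 and 0.24 in pairs 1 to 4. Their mean was -0.43 ± 0.29 (limma's moderated SE, n = 4, limma's adjusted p = 0.92), with a 95% interval of -1.19 to 0.33.

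HSP90B1, the Hsp90 of this compartment (GRP94), had levels of 12.05, 12.89, 12.46 and 12.77 in BHBH and 12.64, 12.30, 13.07 and 12.46 in BHBL. Again BHBL pool 3 was the highest pool and BHBH pool 1 the lowest. Its mean ratio was -0.08 ± 0.25, and the further probe of the gene averaged 0.21. CRELD2, a secreted chaperone cofactor, had ratios of -0.75, 0.88, -0.42 and 0.21, and PDIA3, a disulfide isomerase of glycoproteins, -0.99, 0.09, -0.03 and 0.05. HSPA5, HSP90B1, CRELD2 and PDIA3 thus had ratios below 0 in pairs 1 and 3 and above 0 in pairs 2 and 4. That order of signs was seen in 9.45% of all features, and these genes were set together after their values were seen. The median granulosa marker was at -0.58, 0.43, 0.06 and 0.72 in pairs 1 to 4, so its sign differed from that of these genes in pair 3. HYOU1, HERPUD1 and DDIT4 had its order of signs, or 10.3% of members, beside 8.26% of all features. The summed levels of the granulosa markers were 18.05 to 18.52 in BHBH and 17.74 to 18.58 in BHBL. The part of granulosa cells in any of these ratios was not tested.

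**Figure D2:**
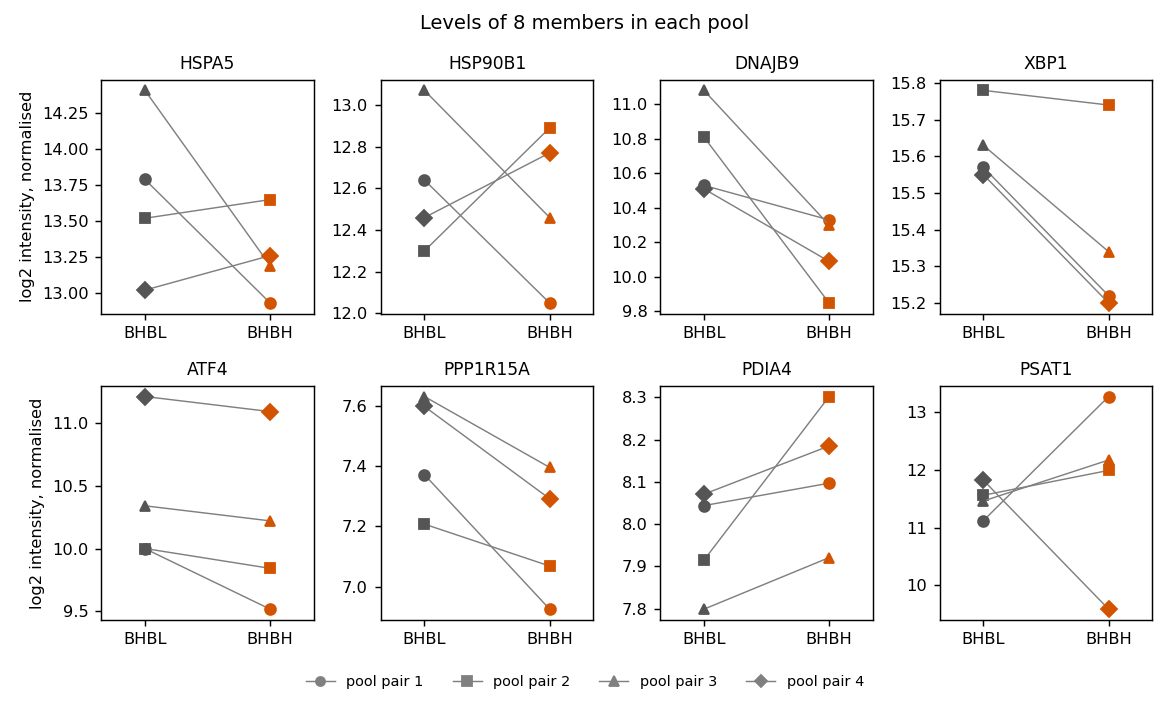
Normalised log2 intensity (vertical axis, scaled for each gene) of 8 genes in 4 BHBL and 4 BHBH pools, with a line joining the pools that shared arrays. Lines of HSPA5, HSP90B1 and PSAT1 slope both ways, those of DNAJB9, XBP1, ATF4 and PPP1R15A all slope down to BHBH, and those of PDIA4 all slope up.

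DNAJB9 was the 1 member whose pools did not overlap. It encodes ERdj4, a J-domain cofactor of BiP that is a target of XBP1 and aids the removal of misfolded proteins. Its level was 10.33, 9.85, 10.30 and 10.09 in BHBH and 10.53, 10.81, 11.08 and 10.51 in BHBL. Every BHBH pool was below every BHBL pool, as for 1.56% of all features (1.34% had every BHBH pool above, and no member did). The ratios were -0.20, -0.96, -0.78 and -0.42, negative on 8 of 8 arrays, with a mean of -0.59 ± 0.15 (1.51-fold lower) and a 95% interval of -0.98 to -0.20. Unadjusted p was 0.0118 and limma's adjusted p was 0.919, so DNAJB9 did not pass over all features. On the deposited ratios the mean was -0.47, and over all alternatives it ranged from -0.72 to -0.47.

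Epithelial markers were also at ratios below 0. This held for the mean of 14 of 14, of which 0 passed the adjusted test and 10 had unadjusted p under 0.05. Their pair medians were -1.29, -2.89, -2.61 and -1.49, lowest in pairs 2 and 3, as the ratios of DNAJB9 were. This shared order was noticed after the values were seen, and the share of all features that have it was not counted. The summed level of the list was 12.80 to 15.59 in BHBH and 15.74 to 17.19 in BHBL, and none of its markers was below background on all arrays. Plasma cell markers, of which 7 of 10 were measured and 6 had mean ratios below 0, had pair medians of -0.15, -1.01, -0.43 and -0.49 and summed levels of 10.91 to 11.48 in BHBH and 11.55 to 12.65 in BHBL. The part of these cells in the DNAJB9 ratio was not tested.

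Other cofactors of BiP went different ways. SDF2L1, a J-protein complex partner, was at 9.05, 8.93, 8.30 and 7.60 in BHBH and at 8.79, 8.91, 8.66 and 8.86 in BHBL. The BHBL pools lay close together and BHBH pools 3 and 4 lay below them, giving ratios of 0.26, 0.02, -0.36 and -1.26 and a mean of -0.33 ± 0.27. DNAJC3 (p58IPK), an inhibitor of PERK as well as a BiP cofactor, had ratios of 0.01, -0.12, 0.79 and -0.78, which averaged -0.03 ± 0.26. HYOU1, a nucleotide exchange factor of BiP, was at 0.15 ± 0.15, and its further probe at -0.00. All 3 means were within the spread between pool pairs.

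Among the disulfide isomerases PDIA4 was the 1 member higher in all 4 pairs, a pattern of 7.04% of all features. Its level was 8.10, 8.30, 7.92 and 8.19 in BHBH and 8.04, 7.92, 7.80 and 8.07 in BHBL. The pools of the groups overlapped, since BHBH pool 3 lay below BHBL pools 1 and 4. Its ratios were 0.05, 0.39, 0.12 and 0.11, with a mean of 0.17 ± 0.09 (adjusted p = 0.919) and 0.21 on the deposited ratios. CALR, calreticulin, a lectin chaperone of glycoproteins, was at 0.09 ± 0.15. The brightest PDIA6 probe was saturated on 8 of 8 arrays in at least 1 channel (6 of 8 arrays in BHBH, 4 of 8 in BHBL), and its ratio of -0.02 ± 0.08 is limited by that. Its other probes, which were not saturated, were at 0.09 and -0.25, with -1.10 and -1.16 in pair 1.

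The sensors and the degradation genes had a median of -0.06, with 1 of 5 higher and 4 lower on average and 0 past the test. XBP1, the transcription factor that IRE1 activates, had levels of 15.22, 15.74, 15.34 and 15.20 in BHBH and 15.57, 15.78, 15.63 and 15.55 in BHBL. In each pair the BHBH pool was the lower of both, and the groups overlapped because BHBH pool 2 exceeded BHBL pools 1, 3 and 4. The ratios were -0.35, -0.05, -0.30 and -0.35, and the mean was -0.26 ± 0.09 (unadjusted p = 0.0332, limma's adjusted p = 0.919). It was lower on 7 of 8 arrays and at -0.23 on the deposited ratios. Slide 289, with BHBH in Cy5, gave -0.06 and slide 288, with BHBL in Cy5, gave -0.46. The probe does not tell spliced from unspliced XBP1.

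ERN1, the gene of IRE1 itself, was at -0.12 ± 0.11, with ratios of 0.07, -0.16, -0.00 and -0.40. EIF2AK3, the gene of PERK, was at -0.06 ± 0.10, with ratios of 0.17, -0.20, -0.21 and 0.01. Both sensor genes stayed within a narrow range, and the 95% intervals were -0.40 to 0.15 for ERN1 and -0.31 to 0.20 for EIF2AK3. ERN1 was dim, though above background in both groups on all 8 arrays, with mean levels of 7.22 in BHBH and 7.345 in BHBL. That low signal limits its ratio and what its narrow interval can show. HERPUD1, which gathers degradation complexes at the membrane and is raised by ATF6, XBP1 and ATF4, was at 11.06, 11.58, 12.44 and 12.01 in BHBH and 12.11, 11.28, 11.84 and 11.74 in BHBL. BHBH pool 1 was the lowest of all 8 pools. The ratio was -1.04 in pair 1 against 0.29, 0.60 and 0.27 in pairs 2 to 4, and the mean was 0.03 ± 0.30. SEL1L, the adaptor of the ubiquitin ligase HRD1, was at -0.04 ± 0.15, and its other probes were at 0.10 and 0.04.

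In the ATF4 arm 3 of 13 measured genes were higher and 10 lower on average, with a median of -0.04 and 0 past the test. On the deposited ratios 6 of 13 were lower and the median was 0.00. ATF4, the transcription factor of the arm, had levels of 9.52, 9.84, 10.22 and 11.09 in BHBH and 10.00, 10.00, 10.34 and 11.21 in BHBL. The groups overlapped widely, and both pools of pair 4 were the highest of their group, also on each array of that pair by itself. Both pools shared these arrays, so a difference of pools and one of arrays cannot be told apart in these levels. Within pairs the BHBH pool was lower every time, and on 8 of 8 arrays, with ratios of -0.48, -0.16, -0.12 and -0.13. The mean was -0.22 ± 0.10 (adjusted p = 0.919), but the deposited ratios averaged -0.15, with 0.04 in pair 4. ATF4 is regulated mainly in translation, which these arrays do not measure.

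PPP1R15A (GADD34), the phosphatase subunit that undoes eIF2alpha phosphorylation, showed the same order within pairs. It was at 6.93, 7.07, 7.40 and 7.29 in BHBH and 7.37, 7.21, 7.63 and 7.60 in BHBL. Its BHBH channel cleared background on 6 of 8 arrays and its BHBL channel on 8 of 8, which limits the ratio. All 4 ratios (-0.45, -0.14, -0.23 and -0.31) and all 8 arrays were below 0. The mean was -0.28 ± 0.08 (1.22-fold lower, unadjusted p = 0.0218, limma's adjusted p = 0.919) and -0.23 on the deposited ratios. DNAJB9, XBP1, ATF4 and PPP1R15A were the 4 of 29 members lower in all 4 pairs, or 13.8%, beside 7.98% of all features.

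The other regulators lay close to 0. DDIT3, the death-associated transcription factor CHOP, was at -0.16 ± 0.10, with ratios of -0.39, 0.01, -0.01 and -0.23 and further probes at -0.04 and -0.03. TRIB3, a pseudokinase that restrains ATF4 and AKT, was at -0.08 ± 0.16. ATF5, a relative of ATF4, was at -0.01 ± 0.07 with few arrays above background. CHAC1, which degrades glutathione, had ratios of -0.59, 0.05, 0.53 and -0.34 that averaged -0.09 ± 0.21. The mTORC1 inhibitors SESN2 and DDIT4 were at 0.08 ± 0.08 and -0.01 ± 0.19. SESN2 was dim, with mean levels of 7.47 in BHBH and 7.39 in BHBL, which limits its ratio. DDIT4 was at -0.70 in pair 1 and between 0.13 and 0.28 in the other pairs.

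Among the genes of amino acid synthesis and transport, PSAT1, the aminotransferase of serine synthesis, had levels of 13.27, 11.99, 12.17 and 9.59 in BHBH and 11.12, 11.56, 11.46 and 11.82 in BHBL. The BHBL pools lay between 11.12 and 11.82, whereas BHBH pool 1 was the highest and BHBH pool 4 the lowest of all 8 pools. The ratios were 2.15, 0.42, 0.71 and -2.23, so the mean of 0.26 ± 0.72 was smaller than the spread between pairs, and the 95% interval of -1.61 to 2.14 leaves its size unknown. Both arrays of a pair differed little, with 2.26 and 2.04 in pair 1 and -2.12 and -2.34 in pair 4. PSAT1 had the widest range over the 8 pools among the 29 genes, 3.69.

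PHGDH, the first enzyme of serine synthesis, had the same signs, with ratios of 0.44, 0.15, 0.19 and -0.90. Leukocyte markers, of which 11 of 20 had a mean ratio above 0 and 0 passed the adjusted test, had pair medians of 1.202, 0.44, 0.70 and -2.27. Those medians had the sign of the PSAT1 ratio in every pair. Single markers differed, and 17, 12, 18 and 0 of the 20 were above 0 in pairs 1 to 4. S100A8 and S100A9 were below 0 in all 4 pairs, with mean ratios of -2.54 and -2.38. The summed level of the 20 markers was 16.82, 16.97, 16.81 and 14.41 in BHBH pools 1 to 4. In BHBL pools 1 to 4 it was 15.12, 16.59, 16.18 and 17.32. PSAT1 was at 13.27, 11.99, 12.17 and 9.59 in the same BHBH pools and between 11.12 and 11.82 in BHBL. None of the 20 markers was below background on all arrays. These shared signs were noticed after the values were seen, and the part of leukocytes in the PSAT1 and PHGDH ratios was not tested. SESN2 was the other member with this order of signs, which 3 of 29 members (10.3%) and 7.15% of all features had.

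**Figure D3:**
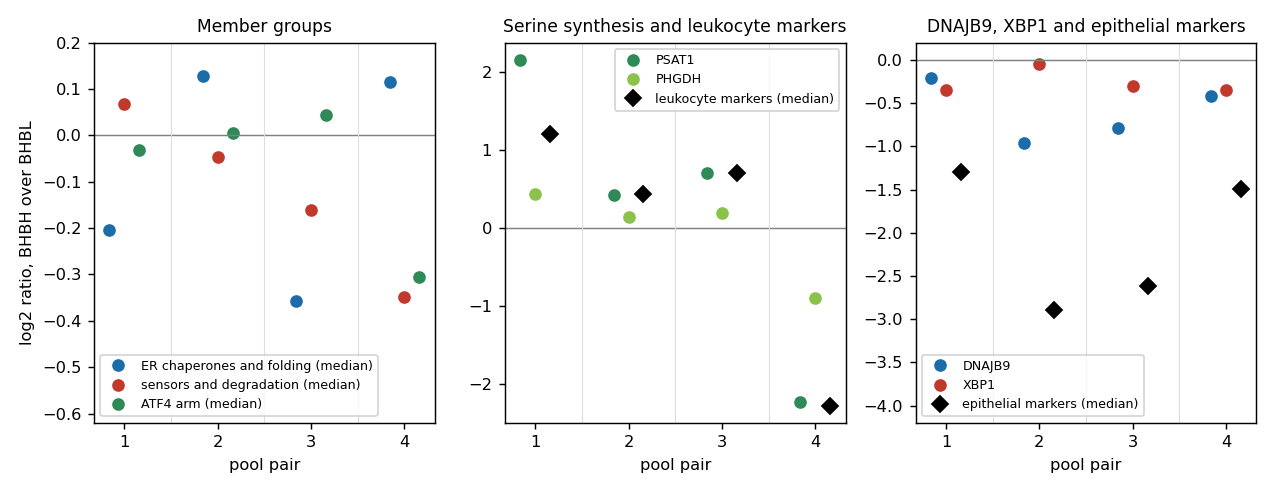
Log2 ratio of BHBH over BHBL (vertical axis) in pool pairs 1 to 4 for the medians of the 3 groups of genes (left), PSAT1 and PHGDH with leukocyte markers (middle), and DNAJB9 and XBP1 with epithelial markers (right). PSAT1 and the leukocyte median are both below -2 in pair 4, and DNAJB9 and the epithelial median are lowest in pairs 2 and 3. XBP1 does not share that order and is closest to 0 in pair 2, at -0.05. The shared signs and orders were noticed after the values were seen.

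ASNS, asparagine synthetase, had levels from 10.57 to 11.85 in BHBH and from 11.06 to 11.46 in BHBL. BHBH pool 3 was the highest and BHBH pool 4 the lowest of the 8, and the ratios of -0.08, -0.42, 0.45 and -0.89 averaged -0.23 ± 0.23. A further ASNS probe averaged -0.18, but the BHBH channel cleared background on only 1 array. SLC3A2, the heavy chain of several amino acid transporters, was at 0.71 and 0.65 in pairs 1 and 2 and at -0.42 and -0.48 in pairs 3 and 4, with a mean of 0.11 ± 0.27. SLC7A11, the cystine transporter that pairs with SLC3A2, was at -0.04 ± 0.07, and its ratios of -0.03, -0.15, 0.01 and -0.01 did not follow those of SLC3A2.

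Dye and slide coincided on these arrays, and both together moved some of the genes. Slides 289 and 288 differed for XBP1, ATF5, SESN2 and SLC7A11, that is 4 of 29 members or 13.8%, by limma with the area number as a block, beside 28.6% of all features (adjusted p under 0.05). SESN2 was below 0 on all 4 arrays of slide 289 (mean -0.24) and above 0 on all 4 of slide 288 (mean 0.41). ATF5 went the same way, with -0.20 and 0.18, and SLC7A11 the opposite way, with 0.19 and -0.28. The averages over both slides, in which this effect cancels, are the values given above. DNAJB9 (-0.70 and -0.49), ATF4 (-0.19 and -0.26) and PPP1R15A (-0.19 and -0.38) were below 0 on both slides.

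**Figure D4:**
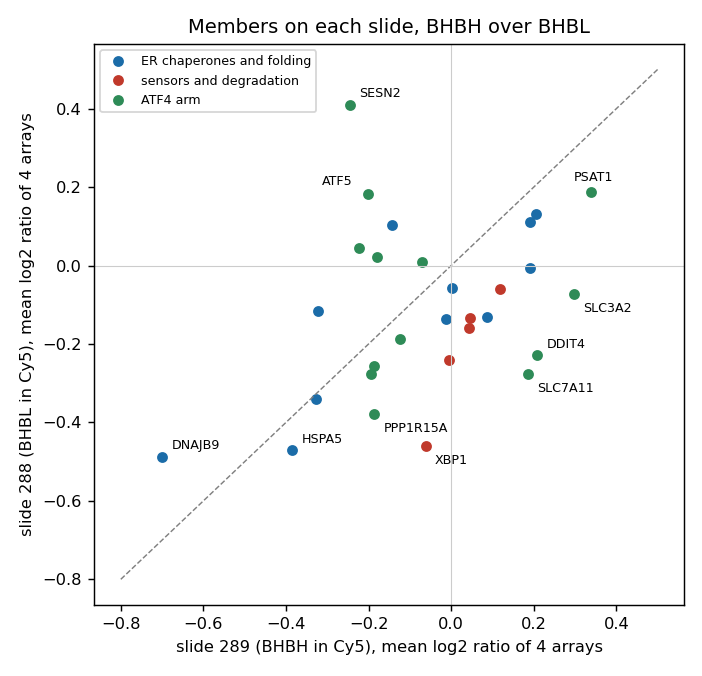
Mean log2 ratio of BHBH over BHBL of each of 29 genes on the 4 arrays of slide 289 (horizontal axis) and on the 4 arrays of slide 288 (vertical axis), with the line of equal values dashed. DNAJB9, HSPA5, PPP1R15A and XBP1 are below 0 on both slides, and SESN2, ATF5, DDIT4, SLC3A2 and SLC7A11 are among the genes with opposite signs on the slides.

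Beyond these genes, 5 further lists of the pathway were measured, and 0 of their 175 genes passed the test over all features. Folding and glycosylation genes (35 of 37 measured) had a median of -0.02, with 15 higher and 20 lower. Their pair medians of -0.29, 0.28, -0.03 and 0.12 had the signs of the chaperone medians, which were -0.20, 0.13, -0.36 and 0.11. QSOX1, a sulfhydryl oxidase, was at -0.10, -2.97, -2.36 and -1.98 in pairs 1 to 4, with a mean of -1.85 ± 0.49. Its pools did not overlap, and its adjusted p was 0.919. The epithelial medians given above were lowest in the same pairs 2 and 3, which was also noticed after the values were seen. The part of epithelial cells in the QSOX1 ratio was not tested. The disulfide isomerase TXNDC5, above background on 6 of 8 BHBH and 7 of 8 BHBL arrays, was at -0.16 ± 0.09, the secreted factor CDNF at 0.20 ± 0.11 and the oligosaccharyltransferase subunit STT3B at 0.31 ± 0.18.

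Further degradation genes (26 of 28 measured) had a median of -0.12, with 8 higher and 18 lower. SELENOS, a selenoprotein of the retrotranslocation complex, was lower in all 4 pairs (-1.07, -0.28, -0.86 and -0.17) without overlap of its pools, at a mean of -0.59 ± 0.19. The ubiquitin ligase gene MARCHF6 was at 0.36 ± 0.11 and higher in all 4 pairs. The conjugating enzyme gene UBE2J2 and the derlin gene DERL3 were both at -0.26. Import and transport genes (36 of 39 measured) had a median of -0.03, with 13 higher and 23 lower. SEC62, which works with the import channel, was at -0.50, -0.48, -0.60 and -0.16, with a mean of -0.43 ± 0.10 and no overlap of its pools. The signal peptidase subunit gene SEC11C was at -0.69 ± 0.26, the vesicle coat GTPase gene SAR1B at -0.34 ± 0.14 and the SNARE gene BET1 at -0.22 ± 0.10. All of these had adjusted p of 0.919 or 0.92.

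Further sensors and signalling genes (33 of 36 measured) had a median of -0.06, with 14 higher and 19 lower. NFYB, a subunit of the CCAAT factor that works with ATF6, was at -0.27 ± 0.09 and lower in all 4 pairs. The adaptor gene NCK1 was at -0.21 ± 0.08, the eIF2B subunit gene EIF2B5 at 0.22 ± 0.11, and NFYC at 0.17 ± 0.11. Further genes of the amino acid response (45 of 48 measured) had a median of -0.02, with 21 higher and 24 lower. ATF3, a stress transcription factor that is also an immediate early gene, had the smallest unadjusted p of the list, with ratios of -1.01, -2.74, -1.68 and -1.98 and a mean of -1.85 ± 0.29 (limma's adjusted p = 0.866). Its pools did not overlap either. Pools that did not overlap, with BHBH below, were found for 5 of the 175 genes, beside 1.56% of all features. Besides QSOX1, SELENOS, SEC62 and ATF3 this was CBS, an enzyme of cysteine synthesis, named after its values were seen. In all 4 pairs 12 of the 175 were lower and 7 higher, beside 7.98% and 7.04% of all features. The genes named here were picked for the smallest unadjusted p of their list. The hormone gene STC2, at 0.28 ± 0.11, was above background on 6 of 8 BHBH and 4 of 8 BHBL arrays, which limits that ratio. In the same list the glutamine carrier gene SLC38A2 was at 0.40 ± 0.16 and higher in all 4 pairs, and the autophagy gene MAP1LC3B at -0.28 ± 0.12 and lower in all 4. Over the 175 genes 59.4% were below 0, beside 51.8% of all features and 54.8% of all named genes. At unadjusted p under 0.05 were 4% of them, beside 5.1% of all features. On the deposited ratios 84 of them, or 48%, were below 0, beside 43.9% of all features and 46.5% of all named genes.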

How the data were processed

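RNA was linearly amplified before labelling, per the labels' protocols, which can alter ratios between transcripts. The deposited intensity values are medians of foreground and local background of each spot in both dyes, without correction, per the file headers. The deposited whole-series table holds log2 ratios, made with limma per the submitters' processing notes. The sources used here give neither its version nor its steps. Correlation with the scanner ratios (0.951 to 0.971 per array) shows that it runs as BHBH over BHBL and is centred near 0 (medians -0.0142 to 0.0396), and it served as an alternative.

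Files were read in R 4.3.3 with data.table (version 1.17.8) and jsonlite (version 2.0.0). In limma 3.58.1 background was corrected by normexp (offset 50), and ratios were normalised by loess with control spots at weight 0 and given the direction BHBH over BHBL according to each array's dye labels. Arrays with the same area number were averaged (the title with area 1.2 was taken as area 1). After removal of slide means, such arrays correlated at 0.842 to 0.892. Nothing names the pools, so the pairing rests on the area numbers in the titles and on this check. A symbol was represented by its probe with the highest mean log2 intensity over the 8 arrays, kept where 1 channel or both exceeded, on 4 or more arrays, the mean plus 2 SD of 153 negative control spots. That left 14081 named genes and 18364 probes without a symbol. The 4 averages were tested against 0 (lmFit, eBayes), adjusted over all features (threshold 0.05). Every value after ± is limma's moderated SE, not the SE of the 4 averages alone. Levels per pool were taken after Aquantile normalisation between arrays. The summed level of a marker list is log2 of the sum of its linear levels. The procedure was tested on simulated ratios with planted changes larger than the mean ratio of any member. That test does not show how often smaller changes would be found. The members, lists and alternatives were chosen with earlier results of these data known. The text names all 29 measured members and, of each further list, the 4 genes of smallest unadjusted p. The number of pool pairs, 4, limits the precision, since the 8 arrays are repeats of these pairs. Symbols are those of the array annotation, older names matched through RefSeq's gene table.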

Additional observations from a re-analysis of the deposited data

Results flagged for a closer look

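In 95 groups of 4 values (ratios of the 29 members over pool pairs, their levels within each group, and medians of 8 lists), 4 had a value far from the other 3, all of them ratios, where chance alone marks about 1 in 20 groups. PDIA3 was at -0.99 in pair 1 against -0.03 to 0.09 in the others. ATF4 was at -0.48 in pair 1 against -0.16 to -0.12. DDIT4 was at -0.70 in pair 1 against 0.13 to 0.28. SESN2 was at -0.0825 in pair 4 against 0.12 to 0.15.

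ATF5 and SESN2 had opposite signs on every array of slides 289 and 288, which carry exchanged dyes. The difference of slide 289 minus slide 288 was -0.38 for ATF5 (adjusted p = 0.0141) and -0.66 for SESN2 (adjusted p = 0.000538), by limma on the 8 arrays with the area number as a block. Dye and slide cannot be told apart.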

How the results depend on the processing

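No alternative called any of the 29 members, and the smallest adjusted p of a member was 0.0882, for DNAJB9, with the 8 arrays as separate ratios. Over all features the 8 arrays with the area number as a replicate block gave 97 calls and the 8 arrays as separate ratios gave 165, against 0 under each of the other 17 alternatives, left-out pool pairs included. Both fits have more residual degrees of freedom, and the second counts repeat arrays of 1 pool pair as independent. The block changed no call of a member, and with it DNAJB9 had adjusted p = 0.212. Without each pool pair in turn the chaperone median ranged from -0.30 (without pair 2) to 0.0383 (without pair 1), while the medians of the sensors and of the ATF4 arm stayed below 0; the cause was not tested. On the deposited ratios 7 of 29 members changed sign, on slide 289 alone 7 and on slide 288 alone 8. Without pool pair 1, 2, 3 or 4, 7, 5, 3 and 6 did. DNAJB9, XBP1, ATF4, PPP1R15A and PDIA4 were among the members that kept their sign under all alternatives. Leaving out saturated probes, chosen after the data were seen, moved PDIA6 to -0.25.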
